A study of Mus musculus with 9 samples.

Results

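The adult haemoglobin genes and Alas2 were described in mouse olfactory bulb after inhalation of linalyl acetate, an ester of lavender and bergamot oils. The 7 genes were chosen by symbol (Hba-a1, Hba-a2, Hbb-bs, Hbb-bt, Hbb-b1, Hbb-b2 and Alas2) out of 22663 symbols and are read by 5 of the 22206 probe sets in the authors' signal table. All 5 probe sets were measured in every array and none was filtered out. The genes were picked with differences between the dose groups of these same arrays already known, so their levels and differences are descriptions and no test is given for them.

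The 3 groups, of 3 arrays each, were male ICR mice (an outbred stock) that breathed a vehicle aerosol of 1% Tween 80, 1% linalyl acetate or 10% linalyl acetate. The labels give an age of 8 weeks, 7 days of acclimation and 7 days of whole-body inhalation, with a tail suspension test after 30 min of inhalation. The labels tie no sample to a single animal and do not state the Tween 80 content of the linalyl acetate aerosols, so errors below measure the spread between these samples, which may be technical. Groups follow the sample titles. The descriptions of 5 samples name other treatments (saline for vehicle replicates 1 and 2, LPS for vehicle replicate 3, oleacein with LPS for 1% replicates 1 and 2), and the series' design text describes human cells.

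Haemoglobin is a tetramer of alpha and beta chains, each holding a haem group that binds oxygen. Red cells make it in the marrow, and young circulating red cells still carry its mRNA, so blood left in a tissue's vessels brings these transcripts into its RNA. Globin transcripts have also been described in some neurons and glia of rodent brain. Hba-a1 and Hba-a2 are the adult alpha genes. Hbb-bs and Hbb-bt are the adult beta genes of one mouse haplotype, Hbb-b1 and Hbb-b2 those of another, and the haplotype of these mice is not given. Alas2 encodes the erythroid form of the enzyme that starts haem synthesis. In bulk RNA, fewer cells of a type and less RNA per cell cannot be told apart.

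The alpha and beta genes lie in separate clusters and Alas2 on the X chromosome, and the promoters are shown to compare what precedes each gene. A relation of these sequences to the differences between doses was not tested. The sequences are the 250 bases before each start site in RefSeq's GRCm38.p6 annotation, which held 5 of the 7 genes. Capitals mark 3 motifs searched on both strands: a GATA word (NGATAN, with adenine or thymine as the first base and adenine or guanine as the last), the CACCC word and the CCAAT word. These stand for the words bound by GATA, Krüppel-like and CCAAT-binding factors. Hba-a1 spans chr11:32283422-32283671 on the + strand, Hbb-bs chr7:103827929-103828178 on the - strand, Hbb-bt chr7:103813924-103814173 on the - strand and Alas2 chrX:150547167-150547416 on the + strand.
Hba-a1: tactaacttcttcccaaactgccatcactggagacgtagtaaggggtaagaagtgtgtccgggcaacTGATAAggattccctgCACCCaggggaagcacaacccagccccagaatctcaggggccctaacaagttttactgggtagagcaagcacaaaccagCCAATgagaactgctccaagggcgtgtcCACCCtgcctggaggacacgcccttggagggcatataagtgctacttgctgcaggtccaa
Hbb-bs: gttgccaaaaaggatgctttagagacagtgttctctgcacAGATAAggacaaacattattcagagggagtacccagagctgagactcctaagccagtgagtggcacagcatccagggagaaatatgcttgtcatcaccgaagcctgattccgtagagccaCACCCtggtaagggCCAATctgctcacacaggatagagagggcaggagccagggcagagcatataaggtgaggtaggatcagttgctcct
Hbb-bt: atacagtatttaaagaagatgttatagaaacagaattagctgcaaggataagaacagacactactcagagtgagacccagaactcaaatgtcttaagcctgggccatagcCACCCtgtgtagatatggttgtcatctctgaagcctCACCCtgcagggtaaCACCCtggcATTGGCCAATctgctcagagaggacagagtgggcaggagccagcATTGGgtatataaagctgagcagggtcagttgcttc
Alas2: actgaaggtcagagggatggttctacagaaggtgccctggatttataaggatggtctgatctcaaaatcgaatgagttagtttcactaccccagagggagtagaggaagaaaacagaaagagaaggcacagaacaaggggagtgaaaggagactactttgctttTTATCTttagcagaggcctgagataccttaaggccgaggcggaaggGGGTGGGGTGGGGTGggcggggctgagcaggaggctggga
Hba-a2 (chr11:32296242-32296491, + strand) is not printed because it matched Hba-a1 at 247 of 247 aligned bases (100.0%). Hbb-bs and Hbb-bt matched at 178 of 243 aligned bases (73.3%). The Hba-a1 window held 1 GATA word, 2 CACCC and 1 CCAAT, and the Hbb-bs window held 1 of each. Hbb-bt held 0 GATA words, 3 CACCC and 3 CCAAT, a pair of the last adjoining on opposite strands. Alas2 held 1 GATA word, 3 CACCC and 0 CCAAT. Of 32851 mouse promoters of this length, 26.5% held a GATA word, 52.0% CACCC, 33.8% CCAAT and 3.92% all 3. A match is a description of these letters and not a site.

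Across the 3 groups, each of the 4 haemoglobin probe sets had its lowest mean at 10% linalyl acetate and its highest at 1%, with vehicle between them. Between the 2 doses the haemoglobin signal was about 2-fold lower at 10%, with no overlap of arrays. Each dose overlapped vehicle at every probe set. Signals below are the authors' normalised log2 values, and differences are on the same scale with the standard error of a limma fit of all 22206 probe sets.

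Of the alpha chain genes, the probe set TC1100000336.mm.2, annotated to Hba-a2 and Hba-a1, had log2 signals of 16.28, 15.97 and 15.52 in vehicle, 16.66, 16.78 and 16.13 at 1%, and 15.09, 15.44 and 15.61 at 10%. The 10% arrays lay below all 1% arrays by at least 0.52, and 1 vehicle array (15.52) lay within the range of the 10% arrays. The means were 15.92 ± 0.38 in vehicle, 16.52 ± 0.35 at 1% and 15.38 ± 0.27 at 10% (SD, n = 3 each). The difference of 10% minus 1% was -1.14 ± 0.24 (SE), or 2.21-fold lower. It was -0.54 for 10% minus vehicle and 0.60 for 1% minus vehicle, with the same standard error, and both of these pairs overlapped.

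The second alpha probe set, TC1100000339.mm.2, annotated to Hba-a1 and Hba-a2, gave 16.15, 15.76 and 15.49 in vehicle, 16.66, 16.70 and 16.12 at 1%, and 15.12, 15.39 and 15.55 at 10%. The 3 arrays at 10% were again all below those at 1%, with a gap of 0.57. Here 10% minus 1% was -1.14 ± 0.23 (2.20-fold lower), 10% minus vehicle -0.45 and 1% minus vehicle 0.69. Both probe sets carry both alpha symbols, so Hba-a1 and Hba-a2 cannot be separated. Their values followed each other across the 9 arrays (r = 0.99), and they are not independent observations.

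Of the beta chain genes, the probe set annotated to Hbb-bs and Hbb-b1 (TC0700003909.mm.2) read 17.20, 15.20 and 16.39 in vehicle, 17.17, 16.98 and 16.41 at 1%, and 15.21, 16.38 and 15.08 at 10%. The highest 10% array lay only 0.03 under the lowest 1% array, and vehicle spanned nearly the whole range. Means were 16.26 ± 1.01 in vehicle, 16.85 ± 0.40 at 1% and 15.56 ± 0.72 at 10%. The difference of 10% minus 1% was -1.30 ± 0.47 (2.46-fold lower). The other differences were -0.71 for 10% minus vehicle and 0.59 for 1% minus vehicle, each with overlapping arrays.

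The probe set annotated to Hbb-bt and Hbb-b2 (TC0700003908.mm.2) read 16.90, 15.04 and 16.12 in vehicle, 16.83, 16.68 and 16.26 at 1%, and 15.42, 16.04 and 15.12 at 10%. All 10% arrays were below all 1% arrays, by 0.22 at the closest, and the lowest array of all was vehicle replicate 2. Its difference of 10% minus 1% was -1.06 ± 0.40 (2.09-fold lower), against -0.49 for 10% minus vehicle and 0.57 for 1% minus vehicle. The beta probe sets also followed each other (r = 0.99 over 9 arrays).

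**Figure D1:**
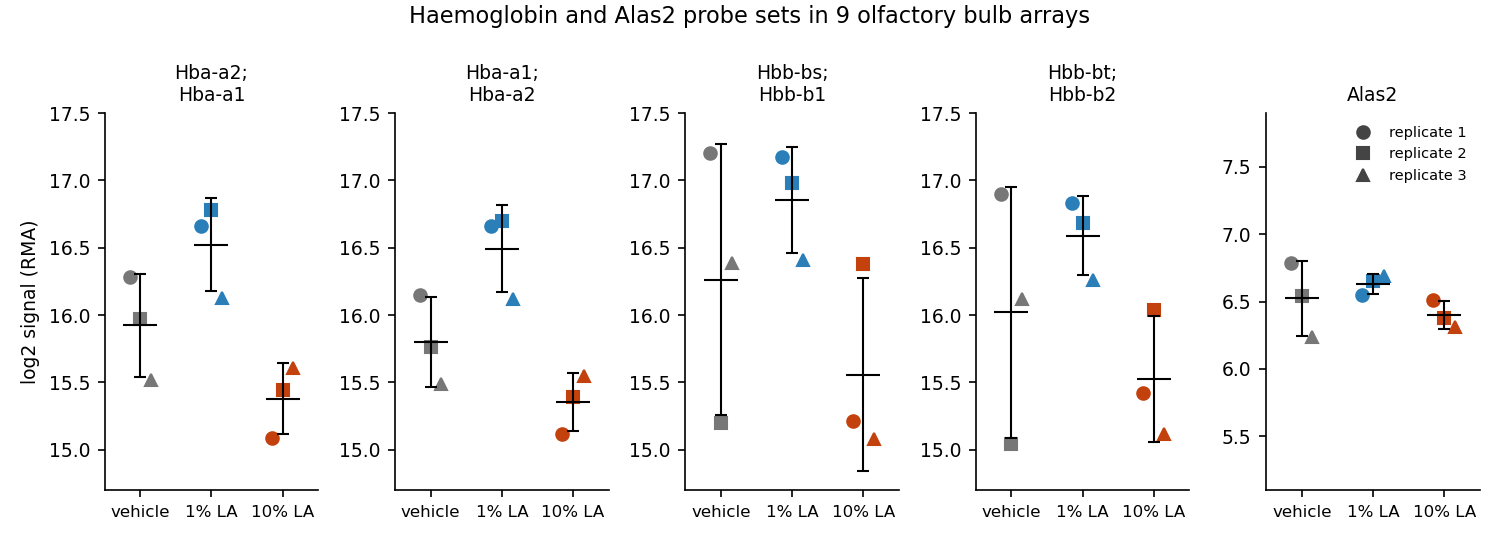
Log2 signal (y axis) of the 5 probe sets in each array, with vehicle, 1% and 10% linalyl acetate (LA) along the x axis, 1 point per array and bars for the mean ± SD of 3 arrays. All 4 haemoglobin probe sets have 10% points below every 1% point, while vehicle overlaps both doses (the Alas2 axis covers lower signals) and spreads from 15.20 to 17.20 for Hbb-bs; Hbb-b1.

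Alas2 (TC0X00001501.mm.2) had signals of 6.79, 6.54 and 6.24 in vehicle, 6.55, 6.65 and 6.69 at 1%, and 6.51, 6.38 and 6.31 at 10%. The 10% arrays lay 0.04 or more below the 1% arrays, and vehicle spanned both. Its difference of 10% minus 1% was -0.23 ± 0.17 (1.17-fold lower), with -0.12 for 10% minus vehicle and 0.11 for 1% minus vehicle. On 9 of 9 arrays the signal was under the median of the array's 5222 negative control probe sets, which ran from 6.87 to 7.12 over the arrays. The low signal limits what an order of groups for Alas2 can show.

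Averaged over the 4 haemoglobin probe sets, 10% minus 1% was -1.16 ± 0.35 (2.24-fold lower), 10% minus vehicle -0.55 ± 0.35 (1.46-fold lower) and 1% minus vehicle 0.61 ± 0.35 (1.53-fold higher). The error here is the pooled standard error of the averaged values, outside the limma fit. These mean levels were 15.49 to 16.63 in vehicle, 16.23 to 16.83 at 1% and 15.21 to 15.81 at 10%, so vehicle overlapped each dose and the doses stood 0.42 apart. Without vehicle replicate 1 the mean differences from vehicle were -0.23 for 10% and 0.93 for 1%, and without vehicle replicate 2 they were -0.80 and 0.36. Groups did not overlap, with 10% lower than 1%, for 5 of the 5 probe sets and for 3.08% of all probe sets, and 4 of the 5 were at least 2-fold lower at 10%, against 0.167% of all. That contrast was in view when the genes were chosen, so nothing is read from these counts. For 10% minus vehicle, 0 of 5 were lower without overlap (3.32% of all probe sets) and 0 of 5 were 2-fold lower (0.135%). For 1% minus vehicle, 0 of 5 were higher without overlap (4.65% of all) and 0 of 5 were 2-fold higher (0.185%).

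**Figure D2:**
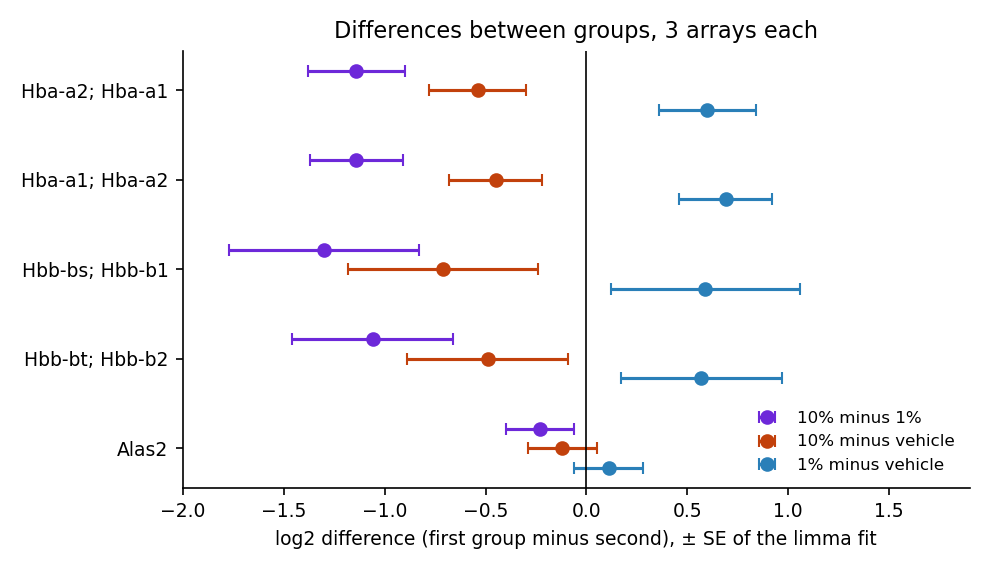
Log2 difference between groups for each probe set (bars: ± 1 limma SE), for 10% minus 1%, 10% minus vehicle and 1% minus vehicle. The 4 haemoglobin differences for 10% minus 1% lie between -1.30 and -1.06, and Alas2 is at -0.23.

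The comparison of the doses gave 0 probe sets (0% of 22206) with an adjusted p under 0.05 in the limma fit with Benjamini-Hochberg adjustment. The other 2 contrasts also gave 0, and the lowest adjusted p was 0.999 for 10% minus 1% and 0.998 for each dose against vehicle. Without adjustment, 676 probe sets (3.04%) had p under 0.05 for 10% minus 1%, 831 (3.74%) for 10% minus vehicle and 771 (3.47%) for 1% minus vehicle. The median difference over all probe sets was 0.00, 0.01 and 0.00 in those contrasts. In the authors' deposited table the signed fold changes of 1% against vehicle were 1.70, 1.85, 1.58 and 1.52 for the alpha pair, Hbb-bs; Hbb-b1 and Hbb-bt; Hbb-b2 in the order above, and 1.08 for Alas2. For 10% against vehicle the authors' deposited table lists -1.44, -1.34, -2.23, -1.48 and -1.10 in that order, where a minus sign means lower at 10%. The Hbb-bs; Hbb-b1 value of -2.23 stands beside a 1.63-fold lower mean here. For 1% against vehicle, the alpha values of 1.70 and 1.85 stand beside means 1.52-fold and 1.62-fold higher here. The reason for these gaps was not tested.

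Among arrays of 1 group, the beta probe sets varied more than nearly all others on the array, and the alpha probe sets moderately. The SD within groups was 0.75 for Hbb-bs; Hbb-b1 and 0.63 for Hbb-bt; Hbb-b2, larger than that of 98.6% and 97.6% of probe sets. For the alpha probe sets it was 0.33 and 0.30, larger than 73.4% and 62.6%, and for Alas2 0.17, larger than 18.3%. The median over all probe sets was 0.258. Over the 9 arrays the highest and lowest signals of Hbb-bs; Hbb-b1 were 4.35-fold apart, against 3.63-fold for Hbb-bt; Hbb-b2, 3.23-fold and 2.99-fold for the alpha pair and 1.46-fold for Alas2.

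The 2 chains did not vary in step in every array. Relative to each chain's mean over the 9 arrays, vehicle replicate 2 was at -0.05 for alpha and -1.02 for beta. Vehicle replicate 1 was at 0.30 for alpha and 0.91 for beta, and 10% replicate 3 at -0.33 for alpha and -1.04 for beta, so in these 3 arrays beta lay farther out. In vehicle replicate 3 and 10% replicate 2 alpha lay below its mean, at -0.41 and -0.50, and beta above, at 0.12 and 0.07. The 3 arrays at 1% and 10% replicate 1 had alpha and beta within 0.13 of each other. As a description over 9 arrays that share groups, the alpha and beta means had r = 0.71 and rho = 0.68, falling to 0.52 and 0.46 without the 2 arrays farthest from the alpha median (1% replicates 1 and 2). Deviations from group means had r = 0.38 and rho = 0.38, and Alas2 against the haemoglobin mean had r = 0.59.

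**Figure D3:**
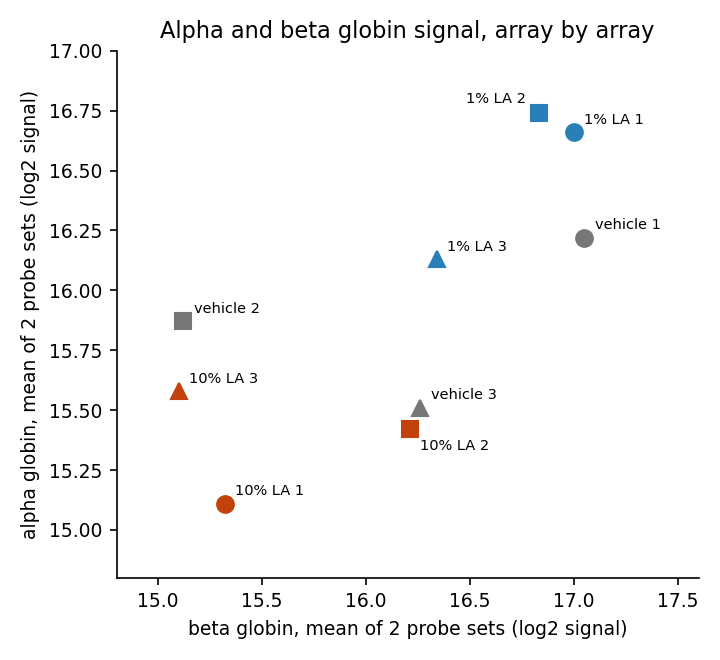
Mean log2 signal of the alpha probe sets (y axis) against that of the beta probe sets (x axis), 1 labelled point per array, coloured by group (LA, linalyl acetate). Vehicle replicate 2 and 10% replicate 3 have low beta signal for their alpha signal, and vehicle replicates 1 and 3 and 10% replicate 2 have high beta signal for theirs.

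Other genes of the red cell did not show the 2-fold difference of the haemoglobin genes between the doses. Of 31 red cell proteins (membrane, skeleton and iron uptake), 17 were higher and 14 lower at 10% than at 1%, 0 had an unadjusted p under 0.05, and the median difference was 0.03, against 0.00 for all probe sets. Slc4a1, the band 3 anion exchanger of the red cell membrane, had 8.85, 7.79 and 8.46 at 10% and 8.42, 8.25 and 8.49 at 1% (difference -0.02 ± 0.27). The 3 genes of this list with the smallest p between the doses were all higher at 10%: Epb41, protein 4.1 of the membrane skeleton, by 0.37 ± 0.19, Rhd, a Rh blood group protein, by 0.29 ± 0.16, and Kel, the Kell protein, by 0.27 ± 0.17. Ahsp, the chaperone of free alpha chains, had 5.88, 5.06 and 5.55 at 10% and 6.08, 5.49 and 5.80 at 1% (difference -0.29 ± 0.24). Of the 31 probe sets, 17 were under the negative control median on all 9 arrays, among them Rhd, Kel and Ahsp. A dim signal limits what such probe sets can show, whichever way they differ.

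Haem synthesis genes other than Alas2 gave 8 higher and 3 lower of 11, 0 of them at an unadjusted p under 0.05, with a median difference of 0.02. Alas1, the form of the enzyme used outside the red cell lineage, had 11.14, 11.10 and 10.99 at 10% and 10.63, 11.00 and 11.16 at 1% (difference 0.15 ± 0.19). Fech, which puts iron into haem, differed by 0.00 ± 0.20, and Cpox and Ppox, the oxidases before it in the pathway, each by 0.27, with standard errors of 0.24 and 0.21. In 10% minus vehicle 1 gene of this list was past the unadjusted threshold, Ppox (protoporphyrinogen oxidase), at 0.54 ± 0.21 (limma adjusted p = 0.998).

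The other globins were 3 higher and 6 lower of 9, with a median of -0.06 and 0 past the unadjusted threshold, and 7 of the 9 were under the negative control median on every array. Hba-x, the embryonic zeta-like alpha chain, had 4.88, 5.22 and 4.47 at 10% and 4.60, 4.64 and 4.35 at 1% (0.33 ± 0.20). Ngb, neuroglobin, differed by -0.27 ± 0.25, and Cygb, cytoglobin, by 0.17 ± 0.18. The 10 erythroid transcription factors were 5 higher and 5 lower with a median of 0.00, Gata1 at 0.04 ± 0.27, Klf1 at 0.08 ± 0.15, Lyl1 at 0.37 ± 0.25, Lmo2 at 0.24 ± 0.19 and Tal1 at -0.30 ± 0.23. Of these 10, 7 were under the negative control median on all arrays. The 13 genes of haemoglobin and haem clearance were 5 higher and 8 lower with a median of -0.05 and 0 past the threshold. Hmox1, which breaks haem down, had 7.67, 7.64 and 7.20 at 10% and 6.97, 7.36 and 7.33 at 1%, with overlap between the groups (0.28 ± 0.19). Slc48a1, a haem transporter, differed by -0.44 ± 0.37 and Blvrb, a biliverdin reductase, by -0.24 ± 0.22. Of these 13 clearance genes, 5 were under the negative control median on all arrays, Blvrb among them.

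Markers of other blood cells were mostly dim: 12 of 13 neutrophil, 10 of 11 lymphocyte and 9 of 11 platelet probe sets were under the negative control median on all arrays. Between the doses, neutrophil genes were 3 higher and 10 lower at 10% (median -0.05), lymphocyte genes 10 higher and 1 lower (median 0.14) and platelet genes 7 higher and 4 lower (median 0.14). The mean of the neutrophil list was 4.56 to 4.95 at 10% and 4.74 to 4.88 at 1%. That of the lymphocyte list was 4.97 to 5.23 at 10% and 4.83 to 5.03 at 1%, and that of the platelet list 5.27 to 5.51 at 10% and 5.25 to 5.44 at 1%. All 3 overlapped between the doses. Single genes of these lists past the unadjusted threshold were Retnlg, a neutrophil gene, at -0.45 ± 0.17 and Gp9, a platelet membrane glycoprotein, at -0.55 ± 0.20, and the limma adjusted p of both was 0.999. S100a9, an abundant neutrophil gene, differed by -0.05 ± 0.34, Camp by -0.21 ± 0.18 and Il1r2 by -0.24 ± 0.20. Pf4 and Ppbp, platelet chemokines, differed by 0.05 ± 0.19 and -0.22 ± 0.31, and the platelet receptors Gp6 and Gp1ba by 0.34 ± 0.27 and 0.33 ± 0.29. Ms4a1 (CD20, on B cells) differed by 0.46 ± 0.24, and Cd3e and Nkg7, of T and natural killer cells, by 0.26 ± 0.24 and 0.26 ± 0.20.

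Vessel genes gave 8 higher and 15 lower of 23 (median -0.10), with list means of 8.30 to 8.96 at 10% and 8.61 to 8.75 at 1%. Acta2, the actin of arterial smooth muscle, had 7.45, 7.96 and 7.71 at 10% and 9.16, 8.93 and 8.07 at 1%. The doses did not overlap, and the vehicle arrays (7.68, 8.24 and 7.65) lay with the 10% arrays and partly reached the 1% range. Its difference of 10% minus 1% was -1.01 ± 0.28 (limma adjusted p = 0.999, unadjusted p under 0.05), and that of 1% minus vehicle was 0.86 ± 0.28 (limma adjusted p = 0.998). Myh11, the smooth muscle myosin, differed by -0.45 ± 0.17 between the doses (limma adjusted p = 0.999, unadjusted p under 0.05) and by 0.40 ± 0.17 between 1% and vehicle. Myh11 was under the negative control median on all arrays, as were 4 of the 23 vessel probe sets in all. Tagln, also a smooth muscle gene of this list, was named after its value was seen and differed by -0.11 ± 0.17 between the doses. The endothelial gene Cldn5 had 9.06, 9.40 and 10.50 at 10% and 8.91, 9.57 and 9.81 at 1% (0.22 ± 0.43), and Vtn, which is high in pericytes, differed by 0.56 ± 0.33. The part of arterial tissue in the haemoglobin difference was not tested.

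**Figure D4:**
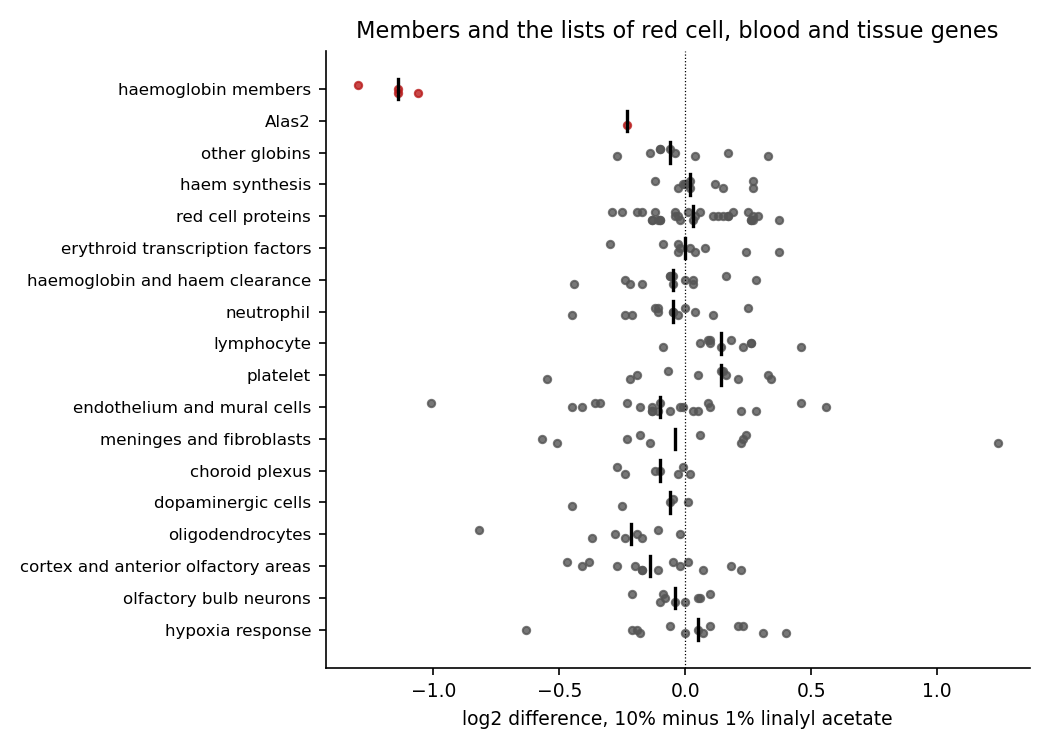
Log2 difference of 10% minus 1% linalyl acetate for every probe set (points) of each gene list, with a line at each list's median and the haemoglobin genes and Alas2 for comparison. Red cell, haem and blood cell lists centre near 0, while the 4 haemoglobin probe sets lie beyond -1; Acta2, at -1.01, is the lowest of the vessel genes.

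Signals of neighbouring tissue differed between arrays. The mean of 14 probe sets of cortex and anterior olfactory areas was 10.98 in vehicle replicate 3, 11.04 in 1% replicate 2 and 11.11 in 10% replicate 2, and 9.88 to 10.36 in the others. The same 3 arrays had the lowest means of the bulb neuron genes, 12.12, 12.35 and 12.15, against 12.83 to 13.23. Each group holds 1 of these arrays, and without all 3 the haemoglobin mean difference was -1.25 for 10% minus 1%, -0.79 for 10% minus vehicle and 0.47 for 1% minus vehicle. Th, which marks the bulb's dopaminergic cells, was bright, at 14.73, 14.27 and 16.07 at 10% and 15.57, 14.71 and 15.55 at 1%. All 8 oligodendrocyte genes were lower at 10% than at 1%, with a median of -0.21 and 0 at an unadjusted p under 0.05, and the list means overlapped (11.23 to 11.93 at 10%, 11.82 to 12.21 at 1%). Of these myelin genes, Mobp differed by -0.82 ± 0.41, Mbp by -0.37 ± 0.26 and Cldn11 by -0.28 ± 0.24.

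Choroid plexus genes were 1 higher and 6 lower (median -0.10) and meningeal genes 5 and 5 (median -0.04). Dcn, the fibroblast proteoglycan decorin, was more than 2-fold higher at 10%, at 10.87, 10.76 and 12.13 against 9.90, 9.0 and 11.13 at 1%, with overlapping arrays (1.24 ± 0.60). Igf2 and Slc22a6, of the meninges, went the other way, at -0.57 ± 0.30 and -0.51 ± 0.25, and the choroid plexus genes Slc4a5, Ttr and Folr1 were at -0.27 ± 0.25, -0.24 ± 0.26 and -0.10 ± 0.16. Dopaminergic genes were 1 higher and 4 lower (median -0.06), cortex probe sets 4 and 10 (median -0.14), bulb neuron genes 4 and 5 (median -0.04) and hypoxia probe sets 7 and 6 (median 0.05). Slc6a3, the dopamine transporter, differed by -0.45 ± 0.20, Th by -0.25 ± 0.45 and the vesicular transporter Slc18a2 by -0.05 ± 0.18. The cortex genes Rorb, Slc17a7 and Bcl11b were at -0.47 ± 0.46, -0.38 ± 0.42 and -0.20 ± 0.22, and the other Rorb probe set was at -0.27 ± 0.36. The bulb neuron genes Cdhr1, Pcp4l1 and Tbx21 were at -0.21 ± 0.37, 0.10 ± 0.24 and -0.08 ± 0.29. Of the genes known to respond to low oxygen, Ndrg1 differed by -0.63 ± 0.30, Adm by 0.40 ± 0.25 and Car9 by 0.31 ± 0.25. Of the 13 hypoxia probe sets, 4 were under the negative control median on all arrays, Car9 among them. The 6 groups from choroid plexus to hypoxia held 0 probe sets at an unadjusted p under 0.05. Over all 16 lists, 4 of 198 probe sets (2.02%) passed the unadjusted threshold in this contrast, against 3.04% of all probe sets, and 0 passed after adjustment.

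For 10% minus vehicle, 8 of the 198 (4.04%) had an unadjusted p under 0.05, 2 higher and 6 lower, and for 1% minus vehicle 6 (3.03%), 2 higher and 4 lower. The red cell proteins had medians of -0.02 in both contrasts, and the haem synthesis genes 0.15 and 0.01. Vessel genes were 5 higher and 18 lower for 10% minus vehicle (median -0.17), and cortex probe sets 13 higher and 1 lower for 1% minus vehicle (median 0.17). Choroid plexus list means were 6.41 to 6.51 in vehicle, 6.01 to 6.37 at 1% and 5.97 to 6.27 at 10%, so vehicle overlapped neither dose. This is 1 of 16 lists, and lists were not tested as sets. Of its 7 probe sets, 4 were under the negative control median on all arrays, Ttr among them, so its signal is limited. Slc4a5, a choroid plexus bicarbonate transporter, had 6.83, 6.68 and 5.99 at 10% and 7.69, 7.16 and 7.22 in vehicle, a difference of -0.86 ± 0.25 (limma adjusted p = 0.998). In that contrast the other globins held 1 gene higher and 1 lower past the unadjusted threshold: Hba-x at 0.45 ± 0.20 and Hbb-bh1, an embryonic beta-like chain, at -0.54 ± 0.24. Gp9 was at -0.59 ± 0.20 and Slc6a3 at -0.58 ± 0.20 there, and Cd36, a scavenger receptor, and Pdgfrb, of pericytes, at -0.62 ± 0.28 and -0.46 ± 0.16. For 1% minus vehicle, Kdr, an endothelial VEGF receptor, was at -0.83 ± 0.35, Slc4a5 at -0.58 ± 0.25, Egln3, an oxygen sensor, at -0.46 ± 0.19 (probe set TC1500001141.mm.2) and Pdgfrb at -0.36 ± 0.16. All of these had a limma adjusted p of 0.998. The other Egln3 probe set, TC1200001742.mm.2, did not pass the unadjusted threshold. By their identifiers these Egln3 probe sets lie on different chromosomes, and which of them reads the gene was not tested. Hba-x, Hbb-bh1, Cd36, Slc6a3 and the passing Egln3 probe set were under the negative control median on all arrays. Hbb-bh1, Cd36, Pdgfrb, Kdr and Egln3 were named after their values were seen, because they passed the unadjusted threshold.

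Of 2636 probe sets with 1 symbol, at least median brightness and a range of 1 log2 unit or more, the 8 whose signals were most like the haemoglobin mean over the 9 arrays had r of 0.78 to 0.94. The closest was Nfu1, a scaffold of iron-sulphur cluster assembly, with 8.95, 8.31 and 8.41 in vehicle, 9.04, 9.18 and 8.50 at 1%, and 7.80, 8.63 and 8.25 at 10%. Its r was 0.94, and 0.91 for deviations from group means. Papss2, which makes the sulphate donor PAPS, had r = 0.85 and Mrpl34, a mitochondrial ribosomal protein, r = 0.83. LOC102634333 and Amer3 (both 0.79), Uggt1, a folding sensor of the endoplasmic reticulum, Lgi2 and Mrpl35 (each 0.78) followed. Within groups the r of Papss2 was 0.88 and that of Mrpl35 0.36. These genes were picked for likeness among 2636 probe sets over 9 arrays, so the r values are descriptions.

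**Figure D5:**
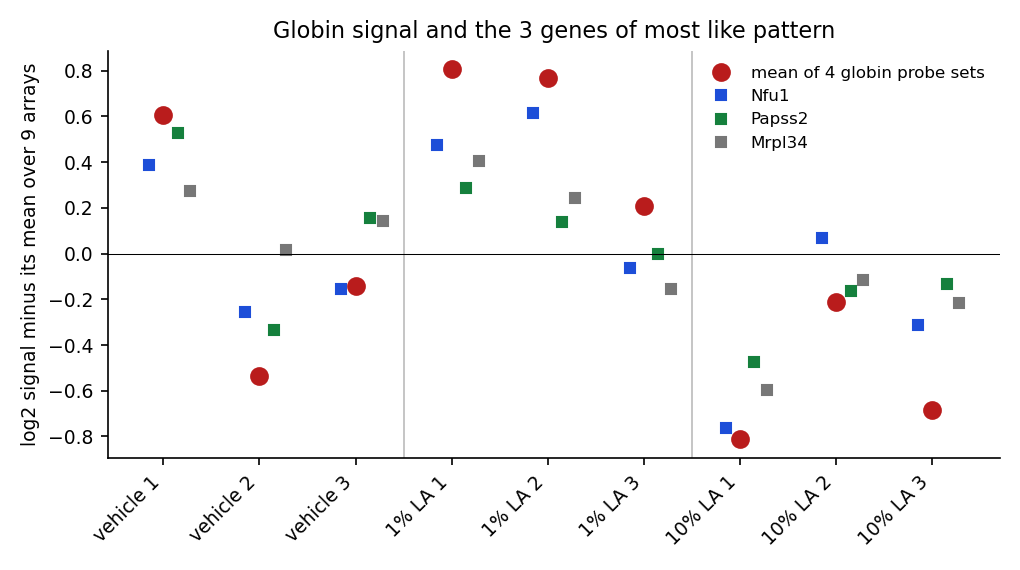
Log2 signal of Nfu1, Papss2 and Mrpl34 and the mean of the 4 haemoglobin probe sets in the 9 arrays, each as a deviation from its own mean over the arrays (y axis), with arrays by group along the x axis. All 4 are low in 10% replicate 1, and the range of the haemoglobin mean is the widest of the 4.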

How the data were processed

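Biotin-labelled cRNA from olfactory bulb was hybridised to Affymetrix-type arrays. The signal values are log2 and were normalised by the authors; the submitters' processing notes name RMA, limma and Transcriptome Analysis Console version 4. The authors' deposited tables also hold signed fold changes, treated as a score and copied unchanged. Sources used here give no genome build for the arrays. In the signal table, 27 cells that had been turned into dates were decoded, after which values lay within 0.0714 of the deposited log2 series matrix.

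Rows were matched by gene symbol. A 1-factor means model over all 22206 probe sets and 9 arrays was fitted with limma 3.58.1 in R 4.3.3 with empirical Bayes moderation, and p-values were adjusted by Benjamini-Hochberg over all probe sets, with a threshold of 0.05. A script tested on simulated data did the fits. The number of arrays limits the precision. Members and gene lists were chosen with earlier results of these data known. Genes named from each list are the up to 3 with the smallest unadjusted p between doses, defining genes of red cell, haem, blood, vessel and bulb lists, and the 8 most like the haemoglobin mean. Of 9 same-numbered pairs of arrays, 2 had deviations correlated above 0.1 (r from -0.16 to 0.27), so replicate numbers were not used as pairs. Alternatives covered normalisation, filters, moderation, left-out arrays and a replicate block. One defining gene is not reported here. Promoters came from RefSeq, and descriptions used Python 3.11.15 with pandas 2.3.3.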

Additional observations from a re-analysis of the deposited data

How the results depend on the processing

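No direction of the mean over the 5 probe sets turned under any alternative run. The differences of this mean were -0.97 for 10% minus 1%, -0.46 for 10% minus vehicle and 0.51 for 1% minus vehicle. A replicate block cannot change them, since each replicate number occurs once in each group. With the block, the count of adjusted calls stayed at 0 in each contrast. Leaving out each array in turn gave -1.12 to -0.89, -0.66 to -0.18 and 0.31 to 0.79 in those contrasts. The low end for 10% minus vehicle, -0.18, came without vehicle replicate 1, and 1% minus vehicle was 0.31 without vehicle replicate 2 and 0.79 without vehicle replicate 1. Restricting the mean to the probe set with 1 gene symbol, which is Alas2, gave -0.23 and 0.11 for 10% minus 1% and 1% minus vehicle. For Hbb-bs; Hbb-b1 the alternatives ran from -1.71 to -1.06 between doses, -1.24 to -0.24 for 10% minus vehicle and 0.06 to 1.06 for 1% minus vehicle, and for Hbb-bt; Hbb-b2 from -1.32 to -0.86, -0.98 to -0.05 and 0.08 to 1.01. The Alas2 difference crossed 0 in 1% minus vehicle (-0.04 to 0.24) and in 10% minus vehicle (-0.27 to 0.01). Adjusted calls, 0 in the fit of all arrays, were 0 to 2 for 10% minus 1% (1 without 1% replicate 2, 2 without 10% replicate 1), 0 to 11 for 10% minus vehicle (11 without vehicle replicate 3, 2 without 10% replicate 1) and 0 to 6 for 1% minus vehicle (6 without vehicle replicate 3) when 1 array was left out. Without the 3 arrays of higher cortex signal they were 10 for 10% minus vehicle and 11 for 1% minus vehicle. Unadjusted calls were 676, 831 and 771 for 10% minus 1%, 10% minus vehicle and 1% minus vehicle. Leaving out probe sets below median brightness tested fewer and gave 256, 422 and 328. With 1 array left out they were 607 to 1011, 722 to 1584 (highest without 10% replicate 3) and 604 to 1206 (highest without vehicle replicate 3), and 1273 for 1% minus vehicle without the 3 arrays. The cause of these shifts was not tested. Between doses, the unadjusted calls of Retnlg, Gp9 and Myh11 were lost under 4, 2 and 4 alternatives that tested them, with the sign unchanged (Retnlg -0.50 to -0.28, Gp9 -0.50 and -0.39, Myh11 -0.43 to -0.35); all 3 were too dim to be tested under the brightness filter. Acta2 kept its call under all. Probe sets near the negative controls, Alas2 included, are limited by signal.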
